A study of Mus musculus with 9 samples.

Results

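Gly-TCC is the glycine transfer RNA (tRNA) whose anticodon is TCC in the DNA alphabet, and its fragments were followed here in mouse blood serum. A read was taken as a Gly-TCC fragment when each of its alignments lay on the mature Gly-TCC reference, and identical reads were counted as 1 distinct sequence. By this rule 497 of the 41240 distinct sequences and 3287 of the 555585 tRNA reads of the series were Gly-TCC fragments. Another 141 reads on 33 sequences aligned to Gly-TCC together with other tRNAs and were not members, 4.11% of all mature reads that met Gly-TCC.

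The study set out from atherosclerosis in mice and gave some of them SalB, short for salvianolic acid B, which is a polyphenol from the root of Salvia miltiorrhiza. Serum RNA was sequenced with a library kit for tRNA fragments at week 20, with 3 libraries from mice on a high fat diet given SalB, 3 from mice on the high fat diet alone and 3 from mice on a normal diet. The SalB group thus shares the high fat diet with the high fat diet group. Titles of the normal diet libraries alone carry "C57", also the short name of a mouse strain. No strain is stated for the remaining libraries in the labels, so diet or treatment and strain cannot be told apart in comparisons with normal diet. The labels state no genotype, sex, age or dose of SalB, and all groups, normal diet included, bear the word atherosclerosis. They do not say that replicates are separate animals, so a p-value here speaks only of how far these libraries spread, which could be technical. The files hold tRNA reads only, so no marker of serum or of blood cells could be checked, and RNA released by fewer cells and less RNA per cell cannot be told apart.

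The libraries held 62258, 156333 and 40134 tRNA reads in the SalB group, 55465, 28191 and 44415 in the high fat diet group and 43007, 31058 and 94724 in the normal diet group. Gly-TCC reads numbered 508, 464 and 272 with SalB, 342, 304 and 330 on high fat diet, and 275, 234 and 558 on normal diet. Levels are given as CPM (tRNA reads scaled to a common library size), which are relative to the other tRNA reads of a library, so the amount of fragment in a volume of serum was not measured. Intervals on shares are 95% Wilson intervals and cover counting error only, since PCR copies are not independent molecules.

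A tRNA reads codons through its anticodon loop and carries its amino acid on a CCA tail that is added to its 3′ end after transcription. Nucleases cut tRNAs in the anticodon loop, which gives long pieces, and in the D and T loops, which gives shorter pieces. Pieces from the 3′ side that start in the T loop and keep the CCA are a well described class of small RNA, and long 5′ pieces of glycine tRNAs are known as abundant RNAs of mouse serum. Many tRNAs carry a methyl group on an A of the T loop, and reverse transcriptases often stop at that base or copy it wrongly, so that a mismatch there is used as a trace of the methyl group. No chemical test of the methyl group is part of these data.

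The sequences below, assembled by position from the deposited reads and their recorded mismatches or copied from single reads, show the tRNA and the pieces on which the results turn. Capitals mark the anticodon at positions 34 to 36, the T-loop A at position 57 and any substituted base. Positions count from 1 at the 5′ end, and a substitution such as A57T gives the base of the reference, its position and the base read.
Gly-TCC tRNA, positions 1 to 75: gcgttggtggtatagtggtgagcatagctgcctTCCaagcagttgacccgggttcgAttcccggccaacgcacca
3′ fragment, positions 54 to 75: tcgAttcccggccaacgcacca
3′ fragment with A57T: tcgTttcccggccaacgcacca
3′ fragment with A75G: tcgAttcccggccaacgcaccG
3′ fragment without CCA, positions 54 to 72: tcgAttcccggccaacgca
5′ fragment, positions 1 to 32: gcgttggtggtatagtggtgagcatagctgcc
5′ fragment with G6T: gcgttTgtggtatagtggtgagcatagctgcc
Internal fragment, positions 31 to 53: ccttccaagcagttgacccgggt
The last 22 bases of Gly-CCC-2, shown because they are 1 base away from Gly-TCC: tcgattcccggccaaTgcacca

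The reads met 1 mature Gly-TCC reference of 75 bases, all of which was covered. RefSeq lists 7 mouse genes for this tRNA in GRCm38.p6 (mm10), each of 72 bases, without the CCA. Of these, 5 lie on chromosome 1 (from n-TGtcc2 at chr1:171037997-171038068 to n-TGtcc3 at chr1:171102756-171102827), 1 on chromosome 3 (n-TGtcc7, chr3:96501009-96501080) and 1 on chromosome 11 (n-TGtcc6, chr11:69041278-69041349). The reads cannot be assigned to any of the 7. The 22-base 3′ end differs from that of Gly-CCC-2, Gly-CCC-3, Gly-CCC-4 and Gly-GCC-2 by C16T, counted from the first base of the fragment. In the 19992 reads of 22 bases at the 3′ end that align to at least 1 of those references, the T bases at fragment positions 1, 5 and 6 were read as C in 62, 21 and 26 reads, or 0.310%, 0.105% and 0.130%. Reads that match Gly-TCC exactly over these 22 bases numbered 1072, or 5.36% of those 19992.

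Most Gly-TCC reads came from the 3′ end of the tRNA. Over all libraries 2348 reads (71.4%) on 152 sequences ended at position 72 or later, that is at the base before the CCA or within it, 477 reads (14.5%) on 93 sequences started at the first base, and 462 reads (14.1%) on 252 sequences were internal. The exact 22-base 3′ fragment alone took 32.6% of the reads. Of the 497 sequences, 284 (57.1%) were seen in 1 read, and the 11 sequences found in all 9 libraries held 57.6% of the reads.

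The 3′ reads had few ends. Of these reads, 2077 of 2348 (88.5%) started at position 54, in the T loop. In the 3′ reads, 1869 (79.6%) ended at the last base of the CCA, 288 (12.3%) ended in CC and 163 (6.94%) ended at position 72, before the CCA. The 5′ reads ended at many places, and 150 of 477 (31.4%) were 30 to 32 bases long, which puts their last base just ahead of the anticodon. Of the internal reads, 197 of 462 (42.6%) ended at position 53 or 54, at or next to the base where the 3′ fragments start.

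**Figure D1:**
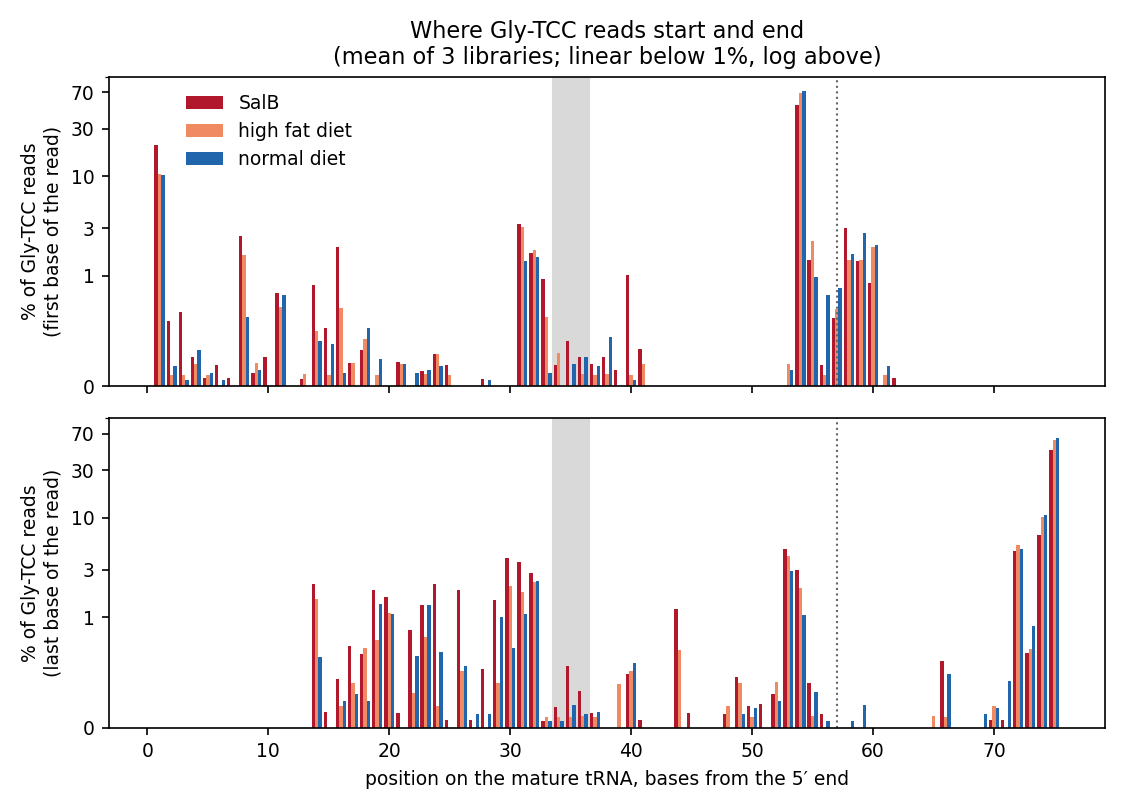
Mean share of the Gly-TCC reads of a library (%, 3 libraries per group, linear up to 1% and logarithmic above) that start (upper panel) or end (lower panel) at each position of the mature tRNA. The grey band is the anticodon and the dotted line the T-loop A at position 57; starts gather at positions 1 and 54 and ends at positions 53, 72, 74 and 75.

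The sum of all Gly-TCC reads did not pass the test in any comparison. It stood at 8533, 6895 and 5551 CPM in the SalB libraries, at 5929, 7400.3 and 6732 CPM in the high fat diet libraries and at 5555, 5568 and 7712 CPM in the normal diet libraries. The 3 groups overlapped. The log2 fold change was 0.05 ± 0.30 (SE) for SalB against high fat diet, 0.15 ± 0.30 for SalB against normal diet and 0.10 ± 0.30 for high fat diet against normal diet (limma-voom, Benjamini-Hochberg adjusted p = 0.920, 0.717 and 0.991, n = 3 per group). Without scaling, Gly-TCC took 0.816%, 0.297% and 0.678% of all tRNA reads with SalB. On high fat diet it took 0.617%, 1.08% and 0.743%, and on normal diet 0.639%, 0.753% and 0.589%. This share did not pass (exact permutation p = 0.604, adjusted p = 0.754). SalB replicate 2, the lowest in this share, had the smallest scaling factor, 0.430. Of 103 families tested (a family is an amino acid with its anticodon, or the set of families that a read cannot be split between), 8.74% were called for SalB against high fat diet, 11.7% for SalB against normal diet and 0% for high fat diet against normal diet, where limma-voom gave 3 families an unadjusted p under 0.05. The median log2 fold change of all 103 families was 0.36, 0.31 and -0.13 in these 3 comparisons, so the scaling does not set the middle of the families at 0.

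Gly-TCC ranked 19 of 50 single nuclear families by mean level, between rank 15 and rank 20 in each library. Among the glycine tRNAs, 5 of 7 families or sets of families were abundant enough to be tested. None of the 5 was called for SalB against high fat diet or for high fat diet against normal diet, and 1 was called lower for SalB against normal diet. That was Gly-CCC, at 11623 ± 1277 CPM with SalB and 26449 ± 4522 CPM on normal diet (SD, n = 3 each), a log2 fold change of -1.19 (limma-voom adjusted p = 0.0135). For SalB against high fat diet, at 22128 ± 3257 CPM, Gly-CCC had a log2 fold change of -0.93 (limma-voom adjusted p = 0.0517), and of -0.75 with an adjusted p of 0.0241 under the second scaling, which is set out with the origins of the reads.

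The 3 origins of the reads were then set against each other. With SalB, a larger share of the Gly-TCC reads was internal and a smaller share came from the 3′ end than in both other groups. The 3′ share was 56.1%, 60.1% and 63.2% in the SalB libraries, 74.0%, 80.6% and 76.4% on high fat diet and 78.9%, 78.2% and 82.8% on normal diet. All SalB libraries lay below all others, and the 2 diet groups overlapped. Mean 3′ shares were 59.8 ± 3.58% with SalB, 77.0 ± 3.35% on high fat diet and 80.0 ± 2.47% on normal diet (SD, n = 3 each). An exact permutation test over all ways to split the 9 libraries into 3 groups of 3 gave p = 0.0107 and an adjusted p of 0.0402 over the 15 measures tested. With 8 libraries the same test gave exact permutation adjusted p-values of 0.0357 to 0.0804, and it passed only when high fat diet replicate 2 was the one left out; the difference between SalB and high fat diet then ran from -18.9 to -15.3 percentage points.

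The internal share was 19.1%, 18.8% and 20.2% with SalB, 15.8%, 10.2% and 11.5% on high fat diet and 12%, 8.55% and 8.42% on normal diet, with the same exact p of 0.0107 and adjusted p of 0.0402. Here too each SalB library stood above each library of the other groups. This call too held only without high fat diet replicate 2 among the libraries left out in turn (exact permutation adjusted p = 0.0402, and up to 0.0995 for the others). The 5′ share was 24.8%, 21.1% and 16.5% with SalB, 10.2%, 9.21% and 12.1% on high fat diet and 9.09%, 13.2% and 8.78% on normal diet. The SalB libraries did not overlap the others in this share either, but the exact permutation p of 0.0286 did not pass after adjustment (adjusted p = 0.0612). Between any 2 groups of 3 libraries the smallest exact two-sided p is 0.1, so no pair of groups can pass on its own.

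These shares do not depend on the scaling between libraries. The same shift away from 3′ reads was present outside Gly-TCC: over all other nuclear tRNAs the 3′ share was 34.4%, 25.3% and 27.9% with SalB, 45.1%, 51.4% and 46.3% on high fat diet and 51.2%, 50.5% and 44.7% on normal diet. The difference between the Gly-TCC share and that of the other nuclear tRNAs in the same library did not pass a test of whether it differed between the groups (exact permutation p = 0.939, adjusted p = 0.996).

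**Figure D2:**
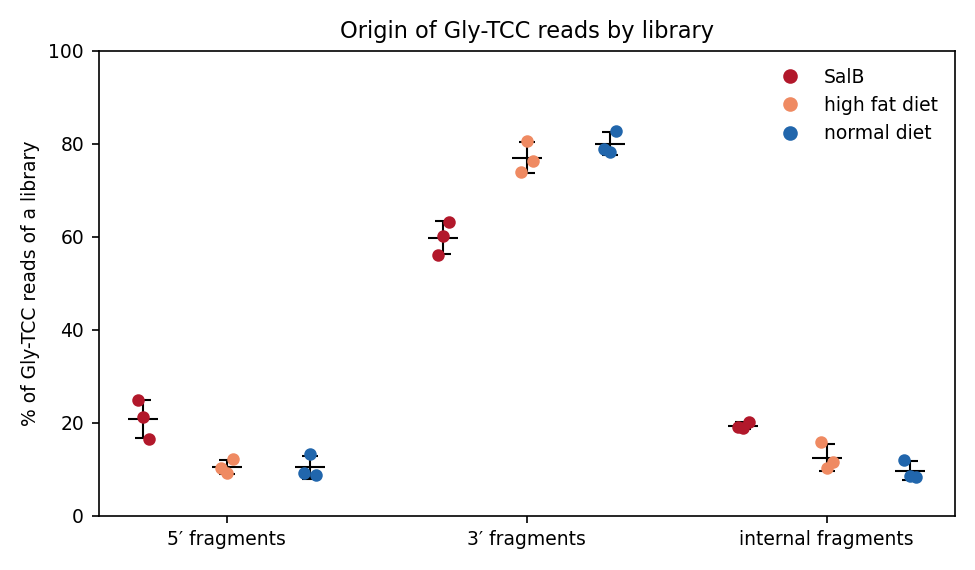
Share of the Gly-TCC reads of each library (%) that are 5′, 3′ or internal fragments; points are libraries and black bars the mean ± SD of 3 libraries. The SalB libraries lie at 56.1% to 63.2% for 3′ fragments, below the 74.0% to 82.8% of the others, and above the others for 5′ and internal fragments.

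As levels, the 5′ sum stood at 2116, 1456 and 918 CPM with SalB, 607, 682 and 816 CPM on high fat diet and 505, 738 and 677 CPM on normal diet. In scaled CPM every SalB library was higher than every other library, and SalB replicate 1 was the highest. This order depends on the scaling. As a share of unscaled tRNA reads, SalB replicate 2 lay below each high fat diet library. It held 98 5′ reads of 156333, against 35 of 55465, 28 of 28191 and 40 of 44415. The log2 fold change of the 5′ sum was 1.15 ± 0.38 for SalB against normal diet (limma-voom adjusted p = 0.0499), at the threshold of 0.05. For SalB against high fat diet it was 1.02 ± 0.38 and did not pass (limma-voom adjusted p = 0.0978). Without SalB replicate 1 these values were 0.87 and 0.73, and neither passed (limma-voom adjusted p = 0.145 and 0.268). Against normal diet the 5′ sum passed only without SalB replicate 2 or SalB replicate 3, and against high fat diet it passed without SalB replicate 3 (1.32, limma-voom adjusted p = 0.0399).

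The internal sum stood at 1629, 1293 and 1122 CPM with SalB, 936, 755 and 775 CPM on high fat diet and 667, 476 and 649.6 CPM on normal diet. The 3 SalB libraries were again the highest in scaled CPM. As a share of unscaled tRNA reads, SalB replicate 2 again lay below each high fat diet library. It held 87 internal reads of 156333, against 54 of 55465, 31 of 28191 and 38 of 44415. The internal sum was called higher for SalB against normal diet, with a log2 fold change of 1.15 ± 0.33 (limma-voom adjusted p = 0.0344), and did not pass for SalB against high fat diet, at 0.69 ± 0.32 (limma-voom adjusted p = 0.173). The call against normal diet also passed only without SalB replicate 2 or SalB replicate 3, and with any other library left out the limma-voom adjusted p was 0.0523 to 0.0846.

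The 3′ sum was at 4787, 4146 and 3510.3 CPM with SalB, 4386, 5964 and 5141 CPM on high fat diet and 4383, 4355 and 6385 CPM on normal diet, and did not pass in any comparison (log2 fold change -0.31 ± 0.32 for SalB against high fat diet, limma-voom adjusted p = 0.535). For high fat diet against normal diet, 0 of the 3 origin sums passed, with log2 fold changes of 0.14, 0.04 and 0.46 for the 5′, 3′ and internal sums. Among all 168 sums of 1 origin within 1 family, 16.1% were called in either direction for SalB against high fat diet, 12.5% were called higher for SalB against normal diet and 0% were called for high fat diet against normal diet, where 10 had an unadjusted p under 0.05 in limma-voom.

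A second scaling, by trimmed means over the 733 fragments that passed the filter in place of all fragments, was fitted after results were known. It called the 5′ and internal sums for SalB against high fat diet as well, with log2 fold changes of 1.23 and 0.89 (limma-voom adjusted p = 0.0305 and 0.0291), where 20.8% of all origin sums were called higher. For SalB against normal diet it gave 1.54 and 1.5 (limma-voom adjusted p = 0.00969 and 0.00269). The call for SalB against high fat diet therefore rests on which scaling is used.

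Among single fragments, the one with the T-loop A read as T was far lower with SalB. Only 5 of the 497 Gly-TCC sequences passed the filter on low counts and were tested; all are 3′ fragments that start at position 54. The A57T fragment had 67.2, 119 and 143 CPM with SalB (4, 8 and 7 reads), 659, 1168 and 592 CPM on high fat diet (38, 48 and 29 reads) and 667, 1023 and 1009 CPM on normal diet (33, 43 and 73 reads). The SalB libraries lay well apart from all others, and the 2 diet groups overlapped. In no SalB library did the fragment reach the filter level of 10 reads at a depth of 44415. It thus entered the test only through the diet groups, where it was high. Its log2 fold change was -2.79 ± 0.53 for SalB against high fat diet and -2.99 ± 0.53 for SalB against normal diet (limma-voom adjusted p = 0.00331 and 0.00199), and -0.20 ± 0.40 for high fat diet against normal diet (limma-voom adjusted p = 0.944).

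The same fragment with the A read as A showed no such gap. It had 2419, 2110.1 and 1592 CPM with SalB, 1734, 2410.0 and 2468 CPM on high fat diet and 1899, 1571 and 3151 CPM on normal diet. The groups overlapped, and the log2 fold change was -0.11 ± 0.39 for SalB against high fat diet and -0.08 ± 0.39 for SalB against normal diet (limma-voom adjusted p = 0.842 and 0.890).

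Of the other 3 tested fragments none passed. The fragment that ends at position 74 had 168, 163 and 224 CPM with SalB, 451, 243 and 245 CPM on high fat diet and 182, 286 and 346 CPM on normal diet. Its SalB libraries lay below the high fat diet libraries and overlapped the normal diet ones (log2 fold change -0.74 ± 0.46 for SalB against high fat diet, limma-voom adjusted p = 0.236). The fragment without the CCA had 336, 208 and 204 CPM with SalB, 191, 219 and 286 CPM on high fat diet and 202, 214 and 263 CPM on normal diet, and its groups overlapped.

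The 22-base fragment with A75G, a mismatch at its last base, had 386, 297 and 265 CPM with SalB, 121, 243 and 265 CPM on high fat diet and 141, 47.6 and 221 CPM on normal diet. In scaled CPM its SalB libraries all exceeded the normal diet libraries, and the lowest SalB library equalled the highest high fat diet library to 3 digits. The log2 fold change for SalB against normal diet was 1.19 ± 0.57 (limma-voom adjusted p = 0.113), and 1.46 with an adjusted p of 0.0369 under the second scaling, where 20.5% of all fragments were called higher.

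So 1 of the 5 tested fragments was called lower and 0 higher for SalB against high fat diet, and likewise for SalB against normal diet. Among all 733 fragments tested, 18.7% were called lower for SalB against high fat diet and 25.9% for SalB against normal diet, and 0% were called in either direction for high fat diet against normal diet, where 64 had an unadjusted p under 0.05 and limma on log2 values also called 0 of the 5. The median log2 fold change of all fragments was -0.34 and -0.44 in the 2 SalB comparisons. The remaining 7 of the 12 most abundant Gly-TCC fragments averaged 60.3 to 89.5 CPM over the 9 libraries, too few reads to be tested; 6 of them are 3′ fragments and 1 is the 14-base 5′ fragment, which had 134, 44.6 and 122 CPM with SalB, 69.3, 73.0 and 40.8 CPM on high fat diet and 20.2, 23.8 and 55.3 CPM on normal diet.

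**Figure D3:**
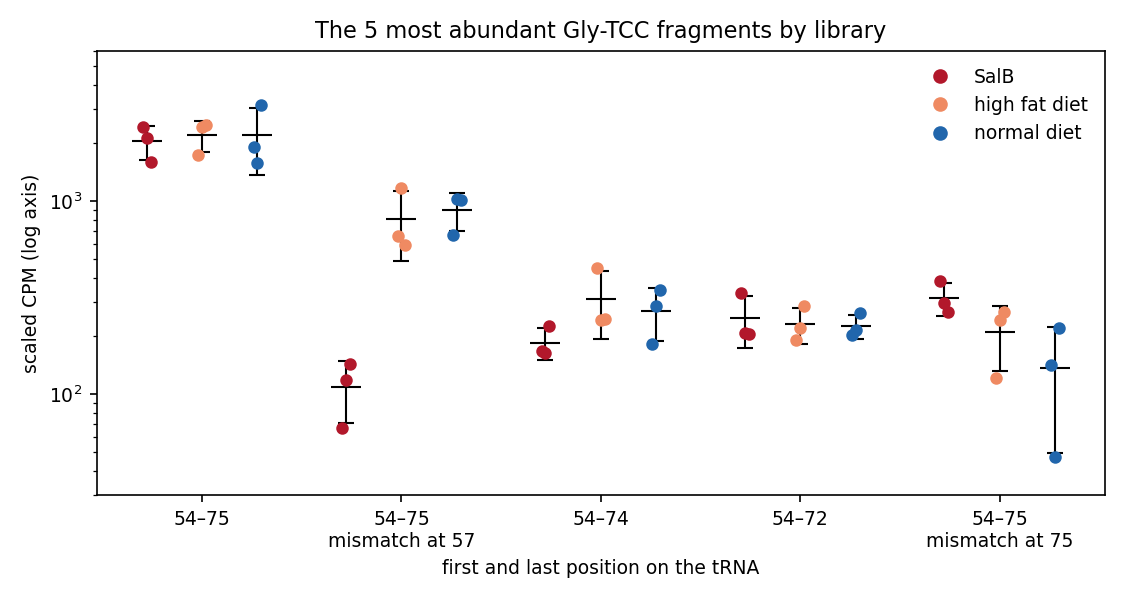
Scaled CPM (log axis) of the 5 most abundant Gly-TCC fragments, named by the first and last position on the tRNA; points are libraries and black bars the mean ± SD of 3 libraries. The fragment with a mismatch at position 57 lies at 67.2 to 143 CPM with SalB and at 592 to 1168 CPM in the other libraries, while the exact 54-75 fragment overlaps between all 3 groups.

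The T-loop A was then followed over all reads that cover it with at least 1 further base. Of 2194 such reads 336 (15.3%) had a mismatch there, of which 328 (97.6%) read T and 8 read C. Most of these mismatched reads are the A57T fragment itself, so its fall and the share below rest largely on the same reads. With SalB the mismatch share was 2.23% (6 of 269 reads, interval 1.03% to 4.78%), 4.21% (11 of 261, 2.37% to 7.39%) and 4.58% (7 of 153, 2.23% to 9.14%). On high fat diet it was 18.3% (43 of 235, 13.9% to 23.7%), 22.8% (53 of 232, 17.9% to 28.7%) and 13% (31 of 239, 9.29% to 17.8%). On normal diet it was 23.3% (47 of 202, 18% to 29.6%), 30.5% (53 of 174, 24.1% to 37.7%) and 19.8% (85 of 429, 16.3% to 23.8%).

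No SalB interval reached the lowest interval of the other groups, and the 2 diet groups overlapped. Means were 3.67 ± 1.26% with SalB, 18 ± 4.94% on high fat diet and 24.5 ± 5.43% on normal diet (SD, n = 3 each; exact permutation p = 0.00714, adjusted p = 0.0402 over 15 measures). The smallest p this test can give is 0.00357. With 1 library left out the adjusted p ran from 0.0357 to 0.0893 and passed only without high fat diet replicate 2, with SalB minus high fat diet between -16.9 and -12 percentage points.

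The same order of the groups was seen in the other glycine tRNAs, at a higher level. There the mismatch share was 8.75%, 9.61% and 16.7% with SalB, 37.5%, 38.0% and 30.4% on high fat diet and 43.2%, 54.3% and 33.8% on normal diet. Gly-TCC was lower than these in 9 of 9 libraries, by 14.8 percentage points on average (exact sign-flip permutation p = 0.00391, the smallest it can give, adjusted p = 0.00568 over 16 tests). With distinct sequences counted in place of reads the difference was -2.59 points and did not pass (exact permutation adjusted p = 0.196). In nuclear tRNAs other than glycine, a comparison group added after values were seen, the share was 0.565%, 3.57% and 1.78% with SalB, 3.11%, 3.58% and 2.79% on high fat diet and 2.65%, 5.18% and 2.51% on normal diet. Gly-TCC exceeded them in 9 of 9 libraries, by 12.5 percentage points on average (exact sign-flip permutation p = 0.00391, adjusted p = 0.00625 over 8 tests).

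The gap between Gly-TCC and the tRNAs other than glycine differed between the groups (exact permutation p = 0.00714, adjusted p = 0.0286 over 8 tests). Those tRNAs, a comparison group added late, averaged only 1.97% with SalB, 3.16% on high fat diet and 3.45% on normal diet. Their gap thus mostly restates the Gly-TCC share and is not a second result. The gap between Gly-TCC and the other glycine tRNAs did not pass the same test between the groups (exact permutation p = 0.0250, adjusted p = 0.133 over 16 tests). Over all other nuclear tRNAs together the share was 15% on average against 15.4% for Gly-TCC, and the difference did not pass (exact sign-flip permutation p = 0.680, adjusted p = 0.777).

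Of 23 families or sets of families with at least 20 covering reads in every library, Gly-TCC ranked 4 by mean mismatch share, after Gly-CCC, Gly-GCC and the reads that those share. In 8 of the 23 every SalB library lay below every high fat diet library. Tyr-GTA, the next in rank, averaged 7.3% with SalB, 18.4% on high fat diet and 14.5% on normal diet, and it exceeded Gly-TCC in SalB replicate 2, at 14.7% against 4.21%.

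**Figure D4:**
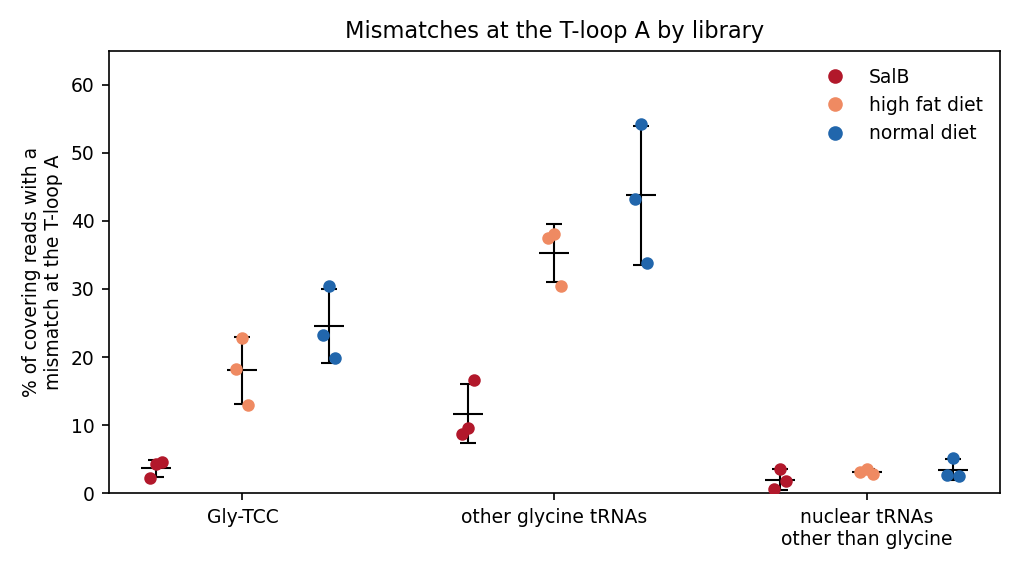
Share of reads covering the T-loop A that carry a mismatch there (%), in Gly-TCC, in the other glycine tRNAs and in nuclear tRNAs other than glycine; points are libraries and black bars the mean ± SD of 3 libraries. Gly-TCC stands at 2.23% to 4.58% with SalB and at 13% to 30.5% in the other libraries; the other glycine tRNAs show the same order at a higher level, and the nuclear tRNAs other than glycine, summed, stay at or below 5.18%.

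Few Gly-TCC reads began just past the T-loop A. Adapters were ligated before the RNA was copied, per the labels' protocols, and what places such starts was not tested. Such reads made up 13 of 285, 11 of 279 and 11 of 172 of the 3′ reads with SalB (4.56%, 3.94% and 6.40%), 2.77%, 2.04% and 0.794% on high fat diet and 1.38%, 2.19% and 2.60% on normal diet. The SalB libraries were the 3 highest, but counts were low and the test did not pass after adjustment (exact permutation p = 0.0286, adjusted p = 0.0612). The other glycine tRNAs were low as well, at 6.44%, 6.74% and 6.79% with SalB, 4.85%, 3.28% and 3.43% on high fat diet and 5.20%, 2.70% and 4.09% on normal diet. Gly-TCC minus these was -1.87 percentage points on average, lower in 9 of 9 libraries (exact sign-flip permutation p = 0.00391, adjusted p = 0.00568 over 16 tests). When each distinct sequence was counted a single time, whatever its reads, that difference did not pass (-2.72 points, exact permutation adjusted p = 0.308). In the nuclear tRNAs other than glycine the share was far larger, at 34.3% on average against 2.96% for Gly-TCC, and Gly-TCC was lower in 9 of 9 libraries (exact sign-flip permutation p = 0.00391, adjusted p = 0.00625).

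With the last base of each read left out, mismatches elsewhere were rare except at position 6. There, 109 of 513 covering reads (21.2%) did not read G, and 107 of these read T. Over the 72 other positions 0.472% of the covered bases were mismatched, and the highest position with at least 100 reads was position 46, at 4.26%. The position 6 share was not among the measures of the plan and is given as a description. Among 5′ reads it was 18.3%, 23.5% and 20.0% with SalB, 20.0%, 17.9% and 27.5% on high fat diet and 24.0%, 19.4% and 18.4% on normal diet. These ranges overlap in all 3 groups, so the position 6 mismatch did not show the pattern of the T-loop A.

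Position 6 lies in the acceptor stem. Other nuclear tRNAs with a G there had a mismatch in 3.85% to 10.1% of 5′ reads per library. By family the share was 18.5% in reads that Gly-CCC and Gly-GCC share, 11.2% in Gly-GCC and 4.15% in Gly-CCC.

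**Figure D5:**
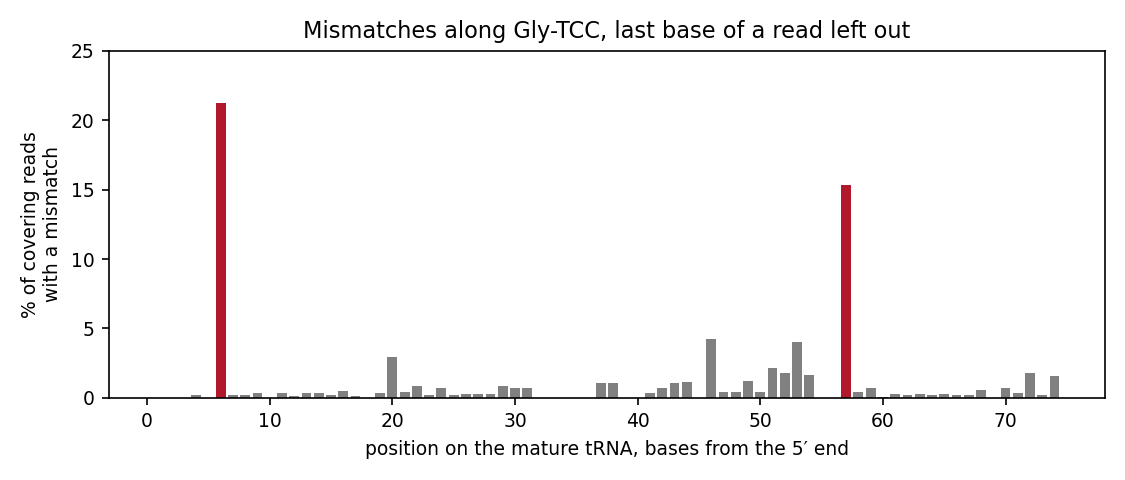
Share of covering Gly-TCC reads with a mismatch (%) at each position of the mature tRNA, over all 9 libraries, leaving out the last base of each read. Positions 6 and 57 (red) stand at 21.2% and 15.3%, and all other positions with at least 100 reads at or below 4.26%.

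The last base of a read was mismatched more often with SalB. The share of Gly-TCC reads with a mismatch at their last base was 23.4%, 19.4% and 17.6% with SalB, 12.6%, 14.1% and 13.9% on high fat diet and 12.4%, 11.1% and 10.8% on normal diet. The 3 groups did not overlap at all (exact permutation p = 0.00357, the smallest the test can give, adjusted p = 0.0402). With 1 library left out the exact permutation adjusted p was 0.0357 to 0.075, under the threshold only without high fat diet replicate 2. In the other nuclear tRNAs it was 27.7%, 15% and 21.2% with SalB, 19.8%, 17.8% and 18.3% on high fat diet and 16.6%, 15.3% and 17.4% on normal diet, where SalB replicate 2 was the lowest of the 9 libraries. The other glycine tRNAs had the same order of group means, at 25.8% with SalB, 19.4% on high fat diet and 17.1% on normal diet. There SalB replicate 2, at 21.2%, lay below high fat diet replicate 1, at 21.6%. The gap between Gly-TCC and these did not pass a test between the groups (exact permutation p = 0.996, adjusted p = 0.996). The gap to all other nuclear tRNAs did not pass either (exact permutation p = 0.289, adjusted p = 0.543). The part of last-base mismatches in the other results was not tested.

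Reads of 22 bases made up 43.7%, 44.2% and 44.1% of Gly-TCC reads with SalB, 47.4%, 62.8% and 57.9% on high fat diet and 57.5%, 54.7% and 64.7% on normal diet. The SalB libraries were the 3 lowest, without passing after adjustment (exact permutation p = 0.0464, adjusted p = 0.0871). The shares of the 3 states of the CCA tail did not pass. Full CCA ends took 79.6%, 79.9% and 80.2% of the 3′ reads with SalB, 71.5%, 82.4% and 82.1% on high fat diet and 80.6%, 75.4% and 81.8% on normal diet (exact permutation p = 1.00, adjusted p = 1.00). Reads without any of the CCA took 9.47%, 6.81% and 6.98% of the 3′ reads with SalB, 6.72%, 7.35% and 6.75% on high fat diet and 5.99%, 6.01% and 6.28% on normal diet. The SalB and high fat diet libraries overlapped and both lay above the normal diet libraries, without passing (exact permutation p = 0.0679, adjusted p = 0.113). Ends in CC overlapped in all 3 groups (exact permutation p = 0.832, adjusted p = 0.953). Starts at position 54 took 85.0% to 91.8% of the 3′ reads in each library (exact permutation p = 0.550, adjusted p = 0.75).

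Gly-TCC differed from other nuclear tRNAs in the make-up of its fragments in every group. Its 3′ share averaged 72.3%, against 41.9% in all other nuclear tRNAs and 33.3% in the other glycine tRNAs, and it was higher in 9 of 9 libraries in both comparisons (exact sign-flip permutation p = 0.00391, adjusted p = 0.00568). Its share of 22-base reads averaged 53%, against 16.1% and 25.1%, also higher in 9 of 9 libraries with the same p. That length is the commonest among Gly-TCC reads and was set after counts were seen, so the p-value for it adds no support. The 5′ share of Gly-TCC averaged 13.9%, against 34.7% in the other glycine tRNAs, and was lower in 9 of 9 libraries (exact sign-flip permutation p = 0.00391, adjusted p = 0.00568). With distinct sequences in place of reads that difference was -2.53 points and did not pass (exact permutation adjusted p = 0.101). Against nuclear tRNAs other than glycine, which averaged 12.6%, its 5′ share did not differ past the threshold (exact sign-flip permutation p = 0.578). The full CCA share averaged 79.3% in Gly-TCC, 79.4% in other nuclear tRNAs and 79.3% in other glycine tRNAs, with differences that did not pass (exact sign-flip permutation p = 0.965 and 0.938).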

How the data were processed

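Per the labels' protocols, RNA isolated with TRIzol was ligated to adapters, reverse transcribed, amplified and cut by size from a gel before NextSeq sequencing; they name blood as the source of RNA, and the tissue label says serum. Per the submitters' processing notes the tools were FastQC, cutadapt, Bowtie and edgeR and the build was mm10, with no options stated. The deposited files are alignment lists, 1 per library, with identical reads collapsed by the authors and their count written in the read name; reads are 14 to 40 bases long with at most 1 mismatch. Since the counts stand in names, limma-voom (limma 3.58.1, R 4.3.3) was used on the deposited counts, in 1 fit of all 9 libraries with a Benjamini-Hochberg threshold of 0.05 over each whole table. The filter kept features that, at a depth of 44415 reads (the median), would have 10 reads in 3 or more libraries, and that had at least 15 reads in all. It was first applied to scaled library sizes and moved to totals after first results were seen.

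The plan named scaling by trimmed means of M values over all fragments (factors 0.430 to 1.46), and values here use it. A second version, over the fragments that pass the filter (0.408 to 1.24), was chosen after the first one's results were seen, was used for a time in its place, and is given as an alternative. The factors over all fragments have a correlation of -0.98 with depth on the log scale over the 9 libraries, and those of the second version -0.76. Shares were tested by exact permutation of libraries and by sign flips within libraries, both two-sided. Of the 15 share measures, the exact positions and lengths were set after the position counts were seen, and the position 6 mismatch stands in no plan. Members and lists were chosen with earlier results of these data known. The named fragments are the 12 most abundant by mean CPM and all that passed. The files hold tRNA reads only, so their totals are not whole library depths, and SalB replicate 2 is rich in Leu-CAG-3-1 precursor reads. The tests were checked on simulated data. The simulated libraries differed in make-up only by set changes and random spread, so that check does not bear on the choice of scaling. Within groups, chi-square per degree of freedom between libraries ran from 2.70 to 48.7, so no library is an identical copy of another. These values cannot tell technical repeats of 1 sample from separate animals. In all, 13 fit settings, and each of the 9 libraries left out in turn, were run at 3 levels for 3 contrasts.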

Additional observations from a re-analysis of the deposited data

Results flagged for a closer look

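In scaled CPM, reads on Gly-TCC precursors, which are not members and enter no comparison above, were higher in each SalB library than in each normal diet library. As a share of unscaled tRNA reads, SalB replicate 2 (12 of 156333) lay below normal diet replicate 2 (5 of 31058). These precursor reads were few. They numbered 16, 12 and 8 with SalB (269, 178 and 163 CPM), 6, 1 and 1 on high fat diet (104, 24.3 and 20.4 CPM) and 1, 5 and 3 on normal diet (20.2, 119 and 41.5 CPM), 53 reads in all. Reads that align to Gly-TCC together with other tRNAs were higher in each high fat diet library, with a lowest value of 364 CPM, than in each normal diet library, with a highest value of 290.2 CPM. Neither sum was tested in the main fit. Of the shared reads, the set that Gly-CCC, Gly-GCC and Gly-TCC share was tested as a family. It averaged 302 CPM on high fat diet and 138 CPM on normal diet. Its log2 fold change of 1.25 ± 0.54 did not pass (limma-voom adjusted p = 0.983).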

How the results depend on the processing

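The fall of the A57T fragment with SalB passed under all 10 other fit settings that test it and without each library in turn, with log2 fold changes from -3.65 to -2.61 against high fat diet and from -3.69 to -2.68 against normal diet over the settings. These fits reuse the same few SalB reads, so they are not separate support. Where a filter was applied, the fragment again entered only through the diet groups. With mismatch variants merged by position, 0 of 3 tested Gly-TCC fragments were called lower for SalB against either diet group (all fragments 17.4% and 24.5%), since the variant is then summed with the exact fragment. Under total counts 2 of 5 were called lower for SalB against high fat diet (all fragments 37.1%). With no filter 2 of 497 were called higher for SalB against either diet group (all 1.61% and 1.78%) and 3 of 497 lower for SalB against normal diet (all 1.35%). Under the second trimmed-mean scaling 1 of 5 was called higher for SalB against normal diet (all 20.5%).

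That second scaling raised the 5′ sum to 1.23 and the internal sum to 0.89 for SalB against high fat diet, both past the threshold, and turned the 3′ sum to 0.049 for SalB against normal diet. For SalB against normal diet the 5′ sum missed the threshold with no filter (1.16), only the 2 groups compared (1.15), reads of 16 to 40 bases (1.03), the replicate number as a block (1.15, adjusted p = 0.0907), total counts (0.72) and without Leu-CAG-3-1 precursor reads (1.14, adjusted p = 0.0502). The internal sum missed it with no filter (1.15), only the 2 groups (1.14), reads of 16 to 40 bases (0.95), the replicate block (1.15, adjusted p = 0.0531) and total counts (0.70). The family sum, called in no setting, turned for SalB against high fat diet to -0.57 under total counts and to -0.056 with reads of 16 to 40 bases, for SalB against normal diet to -0.30 under total counts, and the 3′ sum for high fat diet against normal diet to -0.021 with only the 2 groups compared. Leaving out each library gave 0.73 to 1.32 for the 5′ sum and -0.11 to 0.20 for the family sum of SalB against high fat diet. For SalB against normal diet it gave 0.87 to 1.46 for the 5′ sum, 1.01 to 1.27 for the internal sum and -0.0041 to 0.31 for the family sum. For high fat diet against normal diet it gave -0.0179 to 0.24 for the 5′ sum and -0.071 to 0.23 for the 3′ sum.

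The 3′ share difference between SalB and high fat diet, -17.2 points, kept its sign and lost the adjusted threshold with shared reads (-17.2), distinct sequences (-13.0), reads of 16 to 40 bases (-15.8) and exact reads (-12.99), and ran from -18.9 to -15.3 without single libraries. The T-loop A difference, -14.4 points, did so with shared reads (-14.0), distinct sequences (-2.61) and reads of 16 to 40 bases (-14.4), and ran from -16.9 to -12.0 without single libraries. The internal and last-base mismatch shares kept their sign and passed under none of their 4 and 3 other settings, with adjusted p-values of at least 0.0536. The 5′ share of Gly-TCC minus that of other nuclear tRNAs, -5.53 points, turned to 8.14 points with distinct sequences and to 1.33 points against nuclear tRNAs other than glycine. Of the other results, 39 values under the settings and 51 without single libraries changed sign without passing in either fit. The causes of these changes were not tested.

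No sign was seen that the replicate numbers pair the libraries: correlations of deviations from the group means ran from -0.33 to 0.15 for equal numbers and from -0.25 to 0.26 for unequal ones. With 3 libraries per group such values cannot exclude a pairing or a shared batch. The 5 fragments tested, of 497, show what the depth limits, and the 4 to 8 reads of the A57T fragment per SalB library bound its fold change only loosely.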
